A study of Mus musculus with 4 samples.

Results

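The expression of 10 transcription factors of quiescent T cells was described in CD8αβ+ IELs and CD8αβ+ SPLs. The genes were *Tcf7*, *Lef1*, *Satb1*, *Bach2*, *Foxo1*, *Foxp1*, *Id3*, *Myb*, *Ikzf1* and *Ets1*, and every probe that the array's annotation names for one of them was taken, which gave 10 of 27376 gene names and 23 of 41174 probes. All 23 were tested, and 22 of them were well above background on all 4 arrays. The microarray compared CD8αβ+ T cells from the intraepithelium of the small intestine (IELs) with those from the spleen (SPLs) of untreated, wild-type male mice of 8 to 12 weeks. The mice were on the C57BL/6 background. Both populations were sorted as CD45+ CD3+ CD8α+ CD8β+ TCRβ+ single cells, each sample was a pool of mice, and there were 2 samples per group with 1 array each. Whether the pools shared animals or a day of sorting is not stated, and the p-values measure only the spread between these samples. The study made the comparison to learn what CD8αβ+ IELs do in the small intestine.

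A resting naive T cell is held ready to recirculate by a set of transcription factors. TCF1, encoded by *Tcf7*, and LEF1 are HMG-box proteins that establish T cell identity in the thymus and keep naive and memory CD8 T cells able to self-renew. FOXO1 drives the genes for lymph node homing and for the IL-7 receptor, BACH2 represses effector genes, and SATB1 organizes chromatin loops. As CD8 T cells become effector or tissue-resident cells, several of these factors are known to be switched off.

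The samples differed in a way that the group labels do not explain, and this touches every value below. IEL replicate 1 and SPL replicate 2 were hybridized on slide 1, and IEL replicate 2 and SPL replicate 1 on slide 2. Over 27912 probes, Pearson's r was 0.992 between IEL replicate 2 and SPL replicate 1 but 0.946 between the 2 IEL samples. It was 0.911 between IEL replicate 1 and SPL replicate 2, which also share a slide. Between the 2 SPL samples, on different slides, it was 0.986. T cell markers were present throughout, since all 15 were well above background on every array, *Cd8a* and *Cd8b1* among them. Their summed level, in units of each array's 75th percentile, was 1247 and 1102 in IEL replicates 1 and 2, and 1081 and 1055 in SPL replicates 1 and 2. *Cd6*, the highest of them in IEL replicate 1, had a log2 level of 8.25 there, against 7.37, 6.93 and 6.75 on the other arrays. Of the 15 markers, 10 were higher on average in IELs and 5 were lower. *Cd2*, for one, had 2.27 in IEL replicate 1, against 3.76, 4.14 and 4.15. The summed level of the 13 tested of 16 epithelial markers was 26.8 in IEL replicate 1, 5.42 in IEL replicate 2, 2.21 in SPL replicate 1 and 0.624 in SPL replicate 2. Markers of other spleen cells ran the other way. The 12 tested B cell markers summed to 8.22 in IEL replicate 1, against 32.8 in IEL replicate 2 and 39.7 and 31.5 in SPL replicates 1 and 2. *Cd72*, the highest of them in IEL replicate 1, was not lower there than in SPLs (log2 level 2.02, against 1.95 and 1.76). The median log2 difference of these B cell markers on slide 1 was -3.85. The B cell gene *Ms4a1* was not well above background in IEL replicate 1 only. The 8 erythroid markers summed to 1.19 in IEL replicate 1, against 75.9, 100.2 and 116.8 on the other arrays in the same order, and the 12 myeloid markers to 48.5, against 68.9, 83.1 and 89.2. *Lyz2* made up most of the myeloid sum in IEL replicate 1 and was not lower there (log2 level 5.56, against 4.81, 5.02 and 5.21), whereas the median log2 difference of the 12 on slide 1 was -4.15. B cells also express several of the 10 factors, *Bach2*, *Foxo1*, *Foxp1*, *Ikzf1* and *Ets1* among them, and the part of these other cells in the values below was not tested. In bulk RNA, fewer cells of a type and less RNA per cell cannot be told apart. Differences of the 10 factors are therefore also given within slides and without IEL replicate 2.

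*Tcf7* and *Lef1*, the HMG-box pair, were both lower in CD8αβ+ IELs. *Tcf7* (probe on chromosome 11 of mm9, from 52066114 to 52066173) had a normalized log2 level, the log2 intensity minus the array's 75th percentile, of 2.45 and 3.85 in IEL replicates 1 and 2, and of 4.32 and 4.30 in SPL replicates 1 and 2. The groups did not overlap, with IEL replicate 1 well below the other 3 arrays. The log2 difference of *Tcf7* was -1.16 (standard error 0.52, 2.24-fold lower), and it did not pass the correction (adjusted p 0.634, limma). Within slides, *Tcf7* was 3.61-fold lower on slide 1 and 1.39-fold lower on slide 2.

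*Lef1* (probe across exons on chromosome 3 of mm9, between 130907851 and 130926012) showed the largest difference of the 10 genes. Its intensity was 723 units in IEL replicate 1 and 16273 in IEL replicate 2, against 21976 and 31121 in SPL replicates 1 and 2. The corresponding normalized log2 levels of *Lef1* were 1.21, 5.23, 5.52 and 5.69. Thus IEL replicate 2 lay just under the spleen samples, and IEL replicate 1 far below all of them. The log2 difference was -2.38 (standard error 1.38, 5.21-fold lower, adjusted p 0.634 from limma), with *Lef1* 22.2-fold lower on slide 1 and 1.22-fold lower on slide 2. The standard error of *Lef1* was more than that of *Tcf7* because its 2 IEL samples lay further apart (SD 2.84 and 0.99, n = 2).

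*Satb1* (chromosome 17 of mm9, 51879137 to 51879196) had normalized log2 levels of 3.36 and 5.17 in IEL replicates 1 and 2 and of 5.43 and 5.66 in SPL replicates 1 and 2. It was 2.43-fold lower in CD8αβ+ IELs (log2 difference -1.28, standard error 0.66, adjusted p 0.634 from limma), without overlap, with differences of -2.31 on slide 1 and -0.26 on slide 2. *Bach2* (chromosome 4 of mm9, 32668066 to 32668125), with its single probe, had 0.74 and 3.46 in IELs and 3.84 and 4.16 in SPLs. Its difference was -1.90 (standard error 0.96, 3.73-fold lower, adjusted p 0.634 from limma), and the log2 difference of *Bach2* was -3.42 on slide 1 and -0.38 on slide 2. *Myb*, which encodes the c-Myb activator of progenitor and stem-like lymphocytes, was measured by 10 repeat spots of 1 probe (chromosome 10 of mm9, 20844963 to 20845022) as well as by 3 other probes. On the repeated probe *Myb* had normalized log2 levels of -1.40 and 1.65 in IELs and of 1.94 and 2.55 in SPLs, with 4.36-fold lower expression in CD8αβ+ IELs (log2 difference -2.12, standard error 1.07, adjusted p 0.634 from limma). The difference of *Myb* was -3.95 on slide 1 and -0.30 on slide 2. As for *Lef1*, the gap between the IEL samples of *Bach2* and *Myb* was larger than the gap from IEL replicate 2 to either spleen sample.

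The remaining 5 genes differed less. *Id3*, which encodes an inhibitor of E-protein transcription factors (chromosome 4 of mm9, probe across exons between 135700075 and 135700249), had levels of 0.57 and 1.43 in IELs and of 1.53 and 1.58 in SPLs (log2 difference -0.55, standard error 0.37, adjusted p 0.634 from limma). *Foxp1*, which encodes a forkhead factor of naive T cell quiescence, had 3.37 and 3.68 in IELs and 3.95 and 4.05 in SPLs, a log2 difference of -0.47 (standard error 0.25). *Id3* and *Foxp1* were separated between the groups by small gaps, with IEL replicate 1 lowest. Their differences on slides 1 and 2 were -1.01 and -0.09 for *Id3* and -0.68 and -0.26 for *Foxp1*, and *Foxp1* differed by -0.63 without IEL replicate 2. *Ikzf1*, which encodes Ikaros, a zinc finger protein needed for lymphocyte development, had 3.36 and 3.92 in IELs and 3.93 and 3.70 in SPLs. The groups of *Ikzf1* overlapped, and the log2 difference was -0.17 (standard error 0.30, adjusted p 0.822 from limma), with -0.33 on slide 1, -0.01 on slide 2 and -0.45 without IEL replicate 2. By the brightest probe of each gene, *Foxo1* alone of the 10 was higher on average in CD8αβ+ IELs. It had 6.22 and 5.33 against 5.41 and 5.43 (log2 difference 0.35, standard error 0.38, adjusted p 0.717 from limma), and its groups overlapped. Before scaling, the *Foxo1* intensities were 23205.6 and 17439.5 units in IEL replicates 1 and 2. They were 20379 and 26009.5 in SPL replicates 1 and 2. The difference of *Foxo1* was 0.79 on slide 1 and -0.08 on slide 2. *Ets1*, which encodes the founding ETS protein and is highly expressed in resting lymphocytes, had levels of 4.14 and 4.29 in IELs and of 4.49 and 4.42 in SPLs on its brightest probe (log2 difference -0.24, standard error 0.23, adjusted p 0.692 from limma). The difference of *Ets1* on this probe was -0.27 on slide 1, -0.21 on slide 2 and -0.31 without IEL replicate 2.

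**Figure D1:**
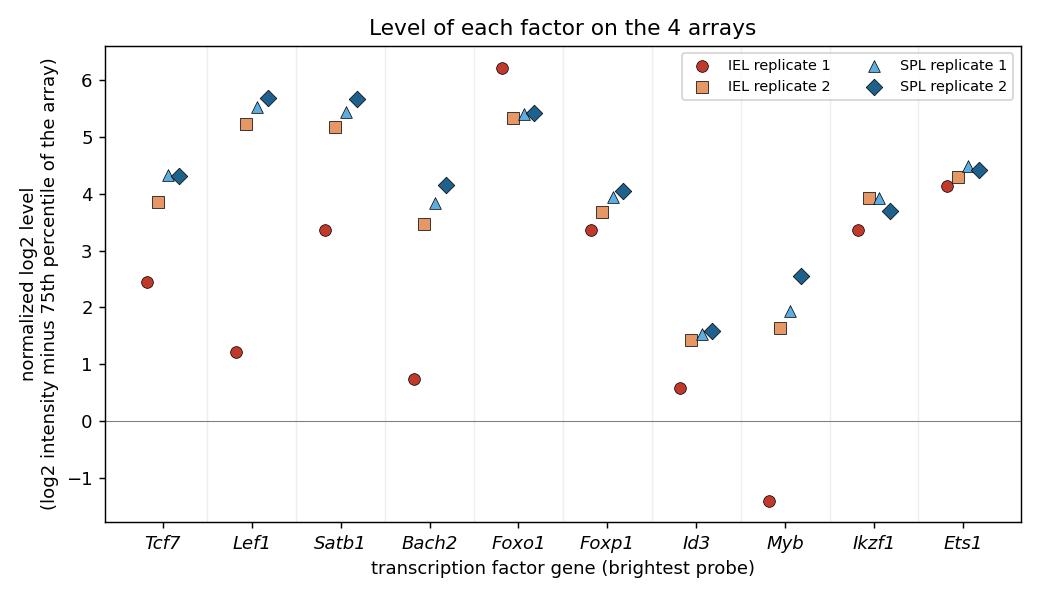
Normalized log2 level (y axis, log2 intensity minus the 75th percentile of the array) of the brightest probe of each of the 10 genes (x axis) on the 4 arrays, with 1 point per array. IEL replicate 1 lies lowest for every gene but *Foxo1*, and IEL replicate 2 lies close to SPL replicate 1. It lies further below SPL replicate 2 for *Myb* (1.65 against 2.55) and *Bach2* (3.46 against 4.16). Levels of different genes come from different probes and are not comparable.

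None of the 10 genes passed the threshold of 0.05 with all 4 arrays, nor did any of 27912 probes tested (0% lower and 0% higher), where the smallest adjusted p from limma was 0.634. At an unadjusted p below 0.05, limma called 0 of the 10 genes, against 1.1% of all probes lower and 4.63% higher, and the unpaired test of the methods also called 0 of the 10. By direction, 9 of the 10 genes were lower in CD8αβ+ IELs, with a median log2 difference of -0.86, against a median of -0.002 over 18468 genes, each taken by its brightest tested probe. *Ets1* counts as lower here and below by its brightest probe only, as the mean of its probes differed by 0.28. In 8 of the 10, both IEL samples lay below both SPL samples, which held for 24.6% of all genes. The order IEL replicate 1, IEL replicate 2, SPL replicate 1, SPL replicate 2 from low to high was seen for 6 of the 10, and for 14% of all genes. Within slides, 9 of the 10 were lower on both, against 36.1% of all genes. On slide 1, 6 genes were at least 2-fold lower (14.2% of all genes) and 4 at least 4-fold lower (5.44%). On slide 2, 0 of the 10 were at least 2-fold lower, against 0.671% of all genes, and the median difference was -0.26, against -1.43 on slide 1.

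Without IEL replicate 2, 5 of the 10 genes fell at an adjusted p below 0.05 in limma, against 10.8% of all genes lower and 8.91% higher. *Lef1* fell 20.9-fold (adjusted p 0.00443), *Myb* 12.5-fold (0.00885), *Bach2* 9.59-fold (0.00734), *Satb1* 4.56-fold (0.0127) and *Tcf7* 3.63-fold (0.0148), and under the other settings the adjusted p of these 5 from limma or the unpaired test ran from 0.465 to 1. In this comparison the spread comes from the SPL samples alone, and the same spread is taken for the single IEL sample that remains. Here and below, shares of all genes without IEL replicate 2 are over the 18853 genes tested in this comparison. *Id3*, at 1.97-fold lower, had an adjusted p of 0.0556 from limma, and *Foxo1* lay in the opposite direction at an adjusted p of 0.0855. For the 6 genes at least 2-fold lower on slide 1, the position of IEL replicate 2 was expressed as a share of the way from IEL replicate 1 to SPL replicate 2 on the linear scale. The share was 50.1% for *Myb*, 57.9% for *Bach2*, 62.6% for *Tcf7*, 63.8% for *Satb1*, 71.4% for *Lef1* and 80.3% for *Id3*, with a median of 63.2%, and the median share of SPL replicate 1 for the same 6 genes was 84.9%. Over all 2615 genes at least 2-fold lower on slide 1 the medians were 72% and 92%.

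More than 1 probe was present for 7 genes, and the probes of *Tcf7*, *Lef1*, *Satb1*, *Myb* and *Foxp1* all had the same direction. The second *Tcf7* probe had a log2 difference of -1.48, and those of *Foxp1* had -0.58 and -0.30. The size differed most for *Myb*, whose 4 probes had differences of -3.55, -2.12, -1.97 and -1.61. The probe with the largest difference is annotated to the cDNA AK036518 and lies inside the gene's span (chromosome 10 of mm9, 20866791 to 20866850), between the other 3 probes. There *Myb* had an intensity of 16.4 units in IEL replicate 1, against 1316 in IEL replicate 2 and 1723 and 3655 in SPL replicates 1 and 2. A *Satb1* probe annotated to the cDNA AK040502 likewise had a difference of -2.10, more than the -1.28 of the probe on the RefSeq transcript. On slide 1 this *Satb1* probe was 17.9-fold lower, and on slide 2 only 1.03-fold lower. For *Lef1*, the probe annotated to a further Ensembl transcript was not well above background in IEL replicate 1, so its difference (-2.93 from the measured values) has no exact size, while the other 2 had -2.38 and -2.46. In *Foxp1*, by contrast, the probe on a further Ensembl transcript had the smallest difference of the 3.

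**Figure D2:**
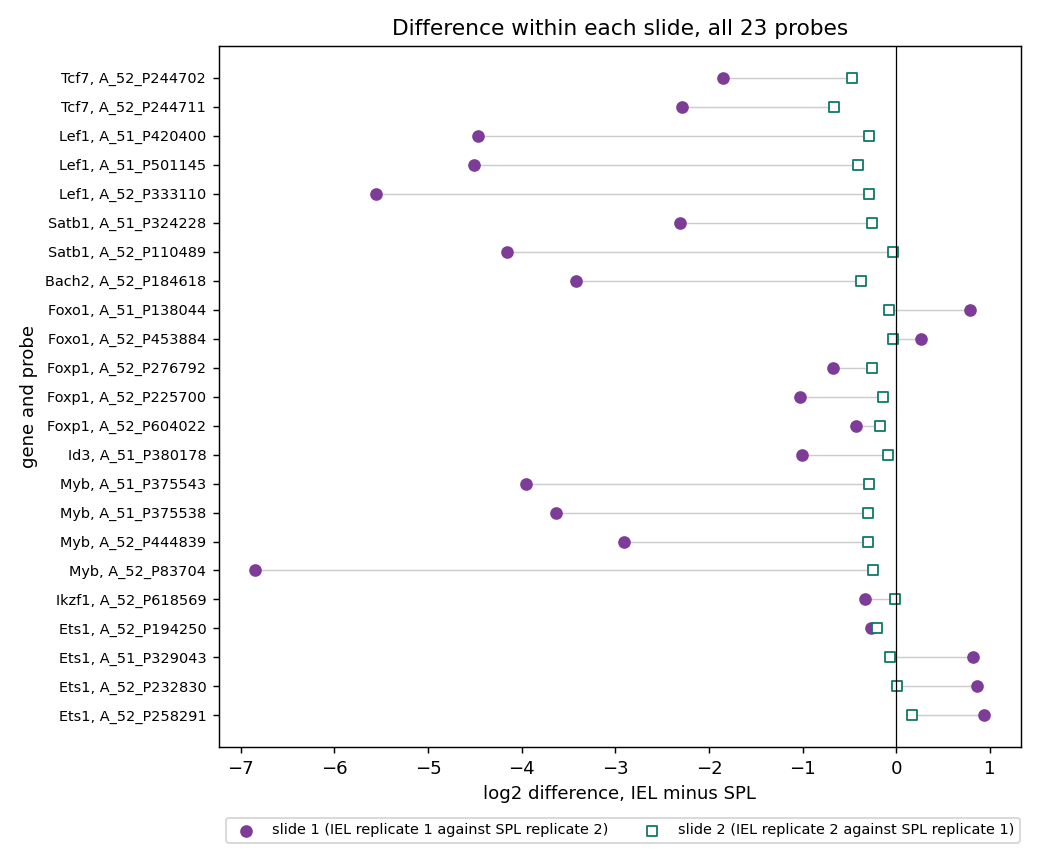
Log2 difference between IEL and SPL (x axis) for each of the 23 probes (y axis, gene and probe name) within slide 1 (filled circles, IEL replicate 1 against SPL replicate 2) and slide 2 (open squares, IEL replicate 2 against SPL replicate 1), with 1 array per group and slide and no error. On slide 1 the probes of *Tcf7*, *Lef1*, *Satb1*, *Bach2* and *Myb* lie between -6.84 and -1.85, and on slide 2 all 23 lie between -0.67 and 0.17. The slide 1 point of *Lef1* probe A_52_P333110 rests on a signal not well above background in IEL replicate 1.

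The probes of *Ets1* and *Foxo1* mark the other end of the range. For *Ets1* the brightest probe lies at base 4514 of its transcript and had a log2 difference of -0.24, whereas the 3 others, at bases 1480 and 2532 of that transcript and on the sequence X55787, had 0.43, 0.55 and 0.38. On those 3 probes the normalized *Ets1* level in IEL replicate 1 was above both SPL samples. The log2 differences were 0.82 to 0.94 on slide 1 and -0.07 to 0.17 on slide 2. Before scaling, the intensity in IEL replicate 1 was below that in SPL replicate 2 on all 3 (8905 against 9533, 7277 against 7373 and 1561 against 1711 units). A mean over the 4 probes was 0.28, so the direction of *Ets1* depends on the probe. A pair of these *Ets1* probes overlaps by 50 bases and differs at 4 of them, shown here in capitals. One is annotated to X55787 and the other to the RefSeq transcript of *Ets1*. Both gave nearly equal differences, 0.38 and 0.43.
A_51_P329043: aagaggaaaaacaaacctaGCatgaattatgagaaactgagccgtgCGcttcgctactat
A_52_P232830: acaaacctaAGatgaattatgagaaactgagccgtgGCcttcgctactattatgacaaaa

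Probes with a forward reading frame free of stop codons over all 60 bases are shown for a gene that was far lower in IEL replicate 1 (*Myb*, 7.52-fold lower on slide 1), for one with a small difference (*Ikzf1*, 1.26-fold lower) and for *Foxo1*, which was higher there (log2 difference 0.79 on slide 1). No base is in capitals, since nothing in them is singled out.
Myb, A_52_P444839: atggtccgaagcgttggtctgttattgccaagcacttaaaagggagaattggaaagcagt
Ikzf1, A_52_P618569: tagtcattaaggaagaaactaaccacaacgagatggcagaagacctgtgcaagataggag
Foxo1, A_51_P138044: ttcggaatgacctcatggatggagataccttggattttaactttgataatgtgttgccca

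Since *Tcf7*, *Lef1* and *Bach2* were lower together, their promoters were searched for the core letters bound by the factors of the list themselves. The letters were CTTTGA for TCF/LEF, TAAACA for forkhead, CCGGAA for ETS, TGGGAA for Ikaros and AACGG for MYB, on both strands and from 250 bases before to 50 after each start in RefSeq (GRCm38.p6). Start sites were listed for 9 of the 10 genes, 20 in all, and several of them overlap. The TCF/LEF letters were in 3 of the 20 (16% of all 32851 promoters), the forkhead letters in 6 (13.4%), the ETS letters in 2 (14.9%), the Ikaros letters in 6 (25.6%) and the MYB letters in 4 (17.4%). These are matches of letters and not sites shown to be bound. The 250 bases before the furthest downstream listed start of *Tcf7*, *Lef1* and *Bach2* are given in the direction of transcription, with the matches in capitals, because these windows hold TCF/LEF or ETS letters.
Tcf7, chr11:52282596-52282845, minus strand: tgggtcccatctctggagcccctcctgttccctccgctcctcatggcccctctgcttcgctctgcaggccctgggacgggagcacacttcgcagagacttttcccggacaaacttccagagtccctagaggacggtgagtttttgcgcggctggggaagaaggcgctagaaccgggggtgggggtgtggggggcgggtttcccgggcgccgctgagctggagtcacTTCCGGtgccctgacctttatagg
Lef1, chr3:131156044-131156293, plus strand: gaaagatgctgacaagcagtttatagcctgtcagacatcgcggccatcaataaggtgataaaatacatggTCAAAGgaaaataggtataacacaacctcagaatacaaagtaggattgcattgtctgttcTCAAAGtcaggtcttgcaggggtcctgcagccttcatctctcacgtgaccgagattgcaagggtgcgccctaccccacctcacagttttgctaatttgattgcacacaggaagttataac
Bach2, chr4:32417185-32417434, plus strand: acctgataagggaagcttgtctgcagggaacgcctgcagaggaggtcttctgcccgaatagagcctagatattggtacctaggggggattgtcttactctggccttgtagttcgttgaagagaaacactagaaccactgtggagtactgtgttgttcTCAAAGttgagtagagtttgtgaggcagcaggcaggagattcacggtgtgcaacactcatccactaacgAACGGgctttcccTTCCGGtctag
The *Lef1* window, at the furthest downstream of its 4 listed starts, holds the TCF/LEF letters at 2 places, and the *Bach2* window holds those of TCF/LEF, MYB and ETS. The other listed starts of *Lef1* hold no TCF/LEF letters, and the other start of *Tcf7* holds no ETS letters. *Satb1* and *Myb*, also lower, have neither TCF/LEF nor ETS letters at any listed start.

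Genes that mark naive and central memory T cells, several of them known targets of FOXO1 or TCF1, were lower as well. Of 18 tested genes of this list, 14 were lower on both IEL arrays than on both SPL arrays (24.6% of all genes), with a median log2 difference of -1.34. None passed the correction with all arrays in limma, and at an unadjusted p below 0.05 0 were lower and 1 was higher, against 1.1% and 4.63% of all probes. *Ccr7*, the lymph node chemokine receptor, had normalized log2 levels of 1.60 and 4.89 in IEL replicates 1 and 2 and of 5.33 and 5.79 in SPL replicates 1 and 2, and *S1pr1*, the egress receptor, had -0.45 and 4.49 against 4.75 and 5.08. *Dapl1*, a marker of naive CD8 T cells, had the largest difference of the list (-4.00, standard error 2.48). Its levels were -1.66 and 5.64 in IEL replicates 1 and 2 and 5.96 and 6.01 in SPL replicates 1 and 2. The difference of *Dapl1* was thus -7.67 on slide 1 and -0.32 on slide 2. The FOXO1 targets *Il7r* (-0.42) and *Klf2* (0.08) differed much less, and *Bcl6* was higher in both IEL samples (1.49), these 3 being named after their values were seen. Without IEL replicate 2, 10 of the 18 fell and 1, *Bcl6*, rose at an adjusted p below 0.05 in limma, against 10.8% and 8.91% of all genes.

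Relatives of the 10 factors in the same protein families did not share their direction. Of 19 tested relatives, 13 were higher in CD8αβ+ IELs, and the median log2 difference was 0.25 (0.42 on slide 1 and 0.13 on slide 2). The Ikaros family genes *Ikzf3*, which encodes Aiolos (1.31), and *Ikzf2*, which encodes Helios (0.96), were higher in both IEL samples, whereas *Ikzf1* differed by -0.17. *Foxo3* (0.93) and *Foxo4* (0.92) were higher in both IEL samples too, but on dim probes. Intensities before scaling differed little. They were 83.3 and 69.9 units in IEL replicates 1 and 2 and 62.8 and 54.9 in SPL replicates 1 and 2 for *Foxo3*. For *Foxo4* they were 48.9, 57.7, 44.2 and 38.3 in the same order. *Id2*, the counterpart of *Id3* in effector CD8 T cells, had levels of 5.18 and 4.43 in IELs and of 4.29 and 4.25 in SPLs (0.53), opposite to *Id3*. Before scaling, the *Id2* intensities overlapped (11301 and 9351 units in IELs, 9356 and 11525.5 in SPLs). *Tcf7l2*, which encodes another TCF protein, was lower (-1.12), also on a dim probe (12.7 and 51.8 units in IELs, 79.5 and 83.3 in SPLs). Among 18 cofactors and partners, which include the TLE corepressors and β-catenin, the median was -0.09 (-0.18 on slide 1 and -0.05 on slide 2). The largest difference was that of *Hdac2* (-0.96), again on a dim probe (23.1 and 21.6 units in IELs, 54.2 and 74.9 in SPLs). None of these genes passed the correction in limma with all arrays (unadjusted, 3 relatives were higher and 1 partner lower, against 4.63% higher and 1.1% lower of all probes). Without IEL replicate 2 the log2 difference was -1.89 for *Tcf7l2*, 1.14 for *Ikzf2* and 1.87 for *Ikzf3*. The relative *Mybl1* was not tested with all 4 arrays, since its probe was well above background in IEL replicate 1 only. It differed by 1.77 without IEL replicate 2. The medians there were 0.46 for the 19 relatives and -0.15 for the 18 partners.

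Factors of effector and tissue-resident T cells lay mostly higher in CD8αβ+ IELs. Of 14 measured, 8 were higher on both IEL arrays than on both SPL arrays, against 24.6% of all genes, and the median log2 difference was 0.50. *Ahr*, the aryl hydrocarbon receptor that IELs need, had levels of 2.90 and 0.74 in IELs and of -0.53 and -0.91 in SPLs. *Tbx21*, which encodes T-bet, had 5.40 and 4.01 against 3.12 and 1.60. *Prdm1* encodes BLIMP-1 and is known to be repressed by BACH2. The difference was 2.54 for *Ahr*, 2.51 for *Rora*, 2.35 for *Tbx21*, 2.16 for *Bhlhe40* and 2.09 for *Prdm1*. For these 5, which had the largest differences of the list, the difference on slide 2 was 0.89 to 1.28. Over all 14 the median on slide 2 was 0.24, close in size to the -0.26 of the 10 quiescence factors. None of the 14 passed the correction with all arrays in limma (unadjusted, 5 were higher and 0 lower, against 4.63% and 1.1% of all probes). Without IEL replicate 2, 6 rose and 1, *Zbtb32*, fell in limma, against 8.91% and 10.8% of all genes.

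**Figure D3:**
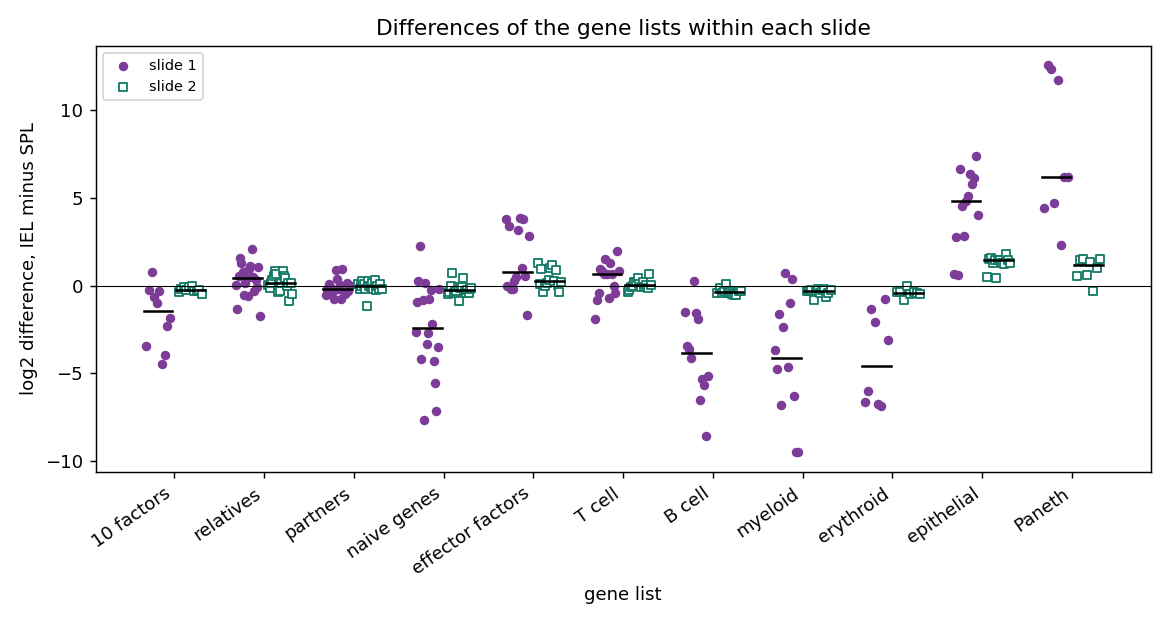
Log2 difference between IEL and SPL (y axis) of each tested gene of the lists (x axis) within slide 1 (filled circles) and slide 2 (open squares), 1 array per group and slide, with the list median as a bar. The 10 factors and the naive genes have medians of -1.43 and -2.42 on slide 1 and of -0.26 and -0.27 on slide 2, and the B cell, myeloid and erythroid markers lie lower still on slide 1.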

How the data were processed

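RNA of 4 samples was hybridized to 1-color Agilent whole mouse genome arrays. The deposited scanner files hold an intensity per spot after background subtraction within the array (Feature Extraction 10.7.3.1 per the file headers, 10.7.1.1 in the submitters' processing notes), as well as the raw mean intensity and local background. A second kind of file from the authors holds log2 values per probe, whose normalization is not given in the sources used here and which was used as an alternative. The paper's methods name PrimeView chips for the microarray, against the Agilent design in the file headers.

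Here log2 of the processed intensity minus each array's 75th percentile over 43379 spots that are not controls was used. Spots with an outlier mark (98 to 179 per array) were left out, 0 spots were saturated, and repeat spots were averaged into 41174 probes, of which 63.6% to 69.6% per array were well above background. A probe was tested if all arrays of either group marked it well above background and it had a value on all 4 (27912 probes). The test between groups was that of limma 3.58.1 under R 4.3.3 (2 residual degrees of freedom, two-sided, Benjamini-Hochberg over all tested probes, threshold 0.05). Precision is limited by the 2 arrays per group, with which an exact two-sided permutation test cannot go below p = 0.333.

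A gene was represented by its tested probe with the highest mean level. All 10 factors are named, and from each other list up to 6 genes with the largest differences or on which a result turns, with exceptions named as such. A gene of the naive list is not reported here by itself. The lists hold 21 relatives, 18 partners, 21 naive genes and 15 effector factors, besides markers of T cells, CD4 T cells, B cells, epithelial cells, Paneth cells, myeloid cells, erythroid cells and natural killer cells. The factors and lists were chosen with earlier results of these data known. Array symbols were used, with the current or an older name. The samples with the same replicate number were not paired, since the methods name an unpaired test. Their deviations from the group means had a correlation of -0.025 over probes. With 2 samples per group, this cannot show whether the pools shared animals or a day of sorting.

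The alternatives were quantile normalization, other scalings, normexp background correction, the authors' values, no or a stricter filter, an intensity trend, blocks for replicate number or for slide, an unpaired test as in the methods, omission of each sample, marked spots kept, and the mean of a gene's probes. After seeing the data, a further normexp fit was added that left out any spot over 20 units dimmer than its surround.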

Additional observations from a re-analysis of the deposited data

How the results depend on the processing

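The 2 samples per group limit what can be detected, and dim probes such as that of *Lef1* on a further transcript were not well above background in IEL replicate 1. With each sample left out in turn, the median log2 difference of the 10 factors was lowest at -1.42, when IEL replicate 2 was left out, and highest at -0.34, when IEL replicate 1 was left out. The number of the 10 past the threshold ran from 0 to 5, and over all probes the higher calls ran from 0 to 2589 and the lower calls from 0 to 2932. The upper end of all 3 counts came without IEL replicate 2. No other setting called any of the 10 or any probe, and with all samples kept the median ran from -0.94 to -0.43. The -0.43 came under normexp, which also put the median over all probes at -0.38, so that the 2 medians lay close there. The factors themselves ran from -1.83 for *Lef1* to 0.85 for *Foxo1* under normexp. *Tcf7*, *Lef1*, *Satb1*, *Bach2*, *Myb*, *Id3* and *Foxp1* had a negative difference under all 18 settings, but under normexp that of *Foxp1* was -0.022 and that of *Id3* -0.16. *Ikzf1* reversed to 0.25 and *Ets1* to 0.23 under normexp. Neither reversed in the normexp fit added later (median 0.15 over all probes, and 0.15 without a filter). *Ets1* reversed to 0.28 with the mean of its probes. With each sample left out in turn, *Foxo1* ran from -0.092 to 0.80 and *Ikzf1* from -0.45 to 0.10, both reversing without IEL replicate 1. The cause of these reversals was not tested, apart from the probes of *Ets1*, which differ in sign. With the replicate block the median of the 10 was -0.86 and their adjusted p from limma ran from 0.596 to 0.929, with the slide as a block it ran from 0.597 to 0.786, and neither changed a call.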

Other observations

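Natural killer and Paneth cell markers completed the marker lists. The 8 Paneth cell markers had a summed level, in units of each array's 75th percentile, of 549.6 in IEL replicate 1, 24.1 in IEL replicate 2, 16.0 in SPL replicate 1 and 10.1 in SPL replicate 2. Of the 4 natural killer cell markers, *Ncr1* was not well above background in IEL replicate 1, *Klra8* had a log2 difference of -2.01 and *Klrb1c* one of 0.30. *Cd4*, which the sort does not select, was well above background on all 4 arrays, but on a dim probe. Its intensities were 33.2 and 53.6 units in IELs and 52.3 and 59.4 in SPLs. The normalized log2 levels of *Cd4* were -3.23 and -3.02 in IELs and -3.20 and -3.35 in SPLs. The CD4 lineage factor gene *Zbtb7b* had a difference of 0.82. The promoters of the 10 factors had a median GC content of 60.2%, from 43.7% to 81.3%, against 52.7% over all promoters.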
